A study of Mus musculus with 9 samples.

Results

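The extracellular ATP and adenosine pathway was represented by 9 listed genes, Nt5e, Entpd1, Adora2a, Adora2b, Ada, Adk, P2rx7, P2rx4 and Slc29a1, chosen by gene symbol in an array experiment on T helper 17 (Th17) cultures. Of these, 7 were carried by a probe set with a single gene symbol, out of 22180 genes compared. No probe set of the annotation used here carried Adora2a or Adora2b, so the adenosine receptors of T cells were not measured. The measured value that entered the choice was the mean level over the 9 arrays, by which the brightest probe set of a gene was selected, and the list itself was drawn up with earlier results of these data known. The rule on probe sets concerned only Slc29a1, whose used probe set averaged 9.06 on the log2 scale and whose other probe set averaged 6.01.

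The cultures came from SRG3 cKO (conditional knockout, SRG3-deficient) mice, RORγt KO (RORγt-deficient) mice and WT mice, with 3 arrays per genotype. In all of them, naive CD4+ T cells sorted from spleen were cultured for 60 h on plates coated with anti-CD3 and anti-CD28 (10 µg/ml of each antibody) in medium with TGF-β1 (1 ng/ml) and IL-6, while IL-4 and IFN-γ were blocked by antibodies (2 µg/ml of each). SRG3, the product of Smarcc1, belongs to Swi/Snf, a complex that remodels chromatin. RORγt is a nuclear receptor on which Th17 differentiation depends. Replicates are called biological in the labels, which do not say whether separate mice or cultures were used, which Cre deleted SRG3 or how old the mice were, and p-values therefore cover the spread among these arrays only. Values are log2 probe set intensities, written below as levels, and the words rose, fell and changed are kept for genes whose limma p-value, adjusted over all 22180 genes by the Benjamini-Hochberg method, was at or under 0.05. The comparisons asked what loss of either protein did to these cultures and how the losses differed.

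Cells release ATP through channels or on damage, and ATP outside the cell opens P2X channels, which let cations in. The surface enzyme CD39, encoded by Entpd1, degrades ATP and ADP to AMP, and CD73, encoded by Nt5e, turns AMP into adenosine. Adenosine acts on T cells mainly through receptors that raise cAMP and restrain activation, and it is removed by deamination (Ada), by uptake (Slc29a1) and by phosphorylation inside the cell (Adk). In mouse Th17 cells, CD39 and CD73 are known to be induced by IL-6 and TGF-β through STAT3, with Gfi1 as a repressor.

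The promoters of Nt5e, Entpd1 and P2rx7 are shown. Nt5e and P2rx7 passed the test described above in at least 1 comparison. Entpd1 did not pass, but had the lowest limma adjusted p of the other measured genes (0.0586, in RORγt KO against WT cells). The sequences are from RefSeq (build GRCm38.p6), 250 bases ending just before the annotated start, 5′ to 3′ on the strand of the gene, with motif matches in capitals. Of the 9 listed genes 8 had at least 1 entry in the table.
Nt5e, annotated start, chr9:88327359-88327608, plus strand: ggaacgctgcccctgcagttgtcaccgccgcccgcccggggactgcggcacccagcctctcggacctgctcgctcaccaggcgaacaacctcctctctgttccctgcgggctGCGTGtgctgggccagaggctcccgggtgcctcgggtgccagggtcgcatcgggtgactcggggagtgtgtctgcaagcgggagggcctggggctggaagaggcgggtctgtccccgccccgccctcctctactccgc
Entpd1, first annotated start, chr19:40612116-40612365, plus strand: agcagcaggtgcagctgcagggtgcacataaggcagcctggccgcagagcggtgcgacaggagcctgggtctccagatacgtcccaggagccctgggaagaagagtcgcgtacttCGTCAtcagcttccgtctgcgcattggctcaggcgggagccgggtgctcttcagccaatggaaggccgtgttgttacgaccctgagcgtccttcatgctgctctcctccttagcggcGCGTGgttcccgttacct
Entpd1, second annotated start, chr19:40659520-40659769, plus strand: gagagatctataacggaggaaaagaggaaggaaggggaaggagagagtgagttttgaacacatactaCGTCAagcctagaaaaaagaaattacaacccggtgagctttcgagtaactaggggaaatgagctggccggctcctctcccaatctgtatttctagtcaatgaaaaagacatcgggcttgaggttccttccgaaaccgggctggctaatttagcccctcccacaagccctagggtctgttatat
P2rx7, first annotated start, chr5:122643677-122643926, plus strand: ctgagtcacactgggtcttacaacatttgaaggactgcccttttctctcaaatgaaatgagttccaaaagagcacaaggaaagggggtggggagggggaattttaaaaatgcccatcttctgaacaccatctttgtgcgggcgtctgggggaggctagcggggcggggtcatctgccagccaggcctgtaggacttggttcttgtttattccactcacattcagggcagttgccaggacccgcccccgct
P2rx7, second annotated start, chr5:122650133-122650382, plus strand: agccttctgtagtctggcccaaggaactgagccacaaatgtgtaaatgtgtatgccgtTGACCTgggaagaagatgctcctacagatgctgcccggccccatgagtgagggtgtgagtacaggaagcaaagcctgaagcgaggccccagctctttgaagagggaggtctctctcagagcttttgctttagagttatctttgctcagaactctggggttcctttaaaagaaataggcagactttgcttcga

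Letters of 5 motifs were searched on both strands: AGGTCA, the core bound by ROR proteins, GCGTG, the core bound by the aryl hydrocarbon receptor, ACGTG, the core bound by HIF-1, TGACG, the core bound by CREB downstream of cAMP, and TTCNNNGAA, bound by STAT proteins. Among all 32851 windows of 250 bases in the table, these occurred in 14%, 28.2%, 16.6%, 17.8% and 7.02% of windows. In the printed windows no match of one motif overlapped a match of another. The Nt5e window held GCGTG, 138 bases before the start, counted at the leftmost base of the match, and none of the other letters. The first Entpd1 window held TGACG on the opposite strand at 135 bases and GCGTG at 18 bases, and the second held TGACG on the opposite strand at 183 bases. The first P2rx7 window held none of the motifs, and the second held AGGTCA on the opposite strand at 192 bases. These are matches of letters, and binding was not measured.

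Array medians lay between 7.12 and 7.14, and the middle of all values ran between the quartiles 6.12 and 8.23. Smarcc1, the gene deleted in SRG3 cKO mice, fell 3.15-fold against WT in those cells (-1.65 on the log2 scale, with SE 0.09 and limma adjusted p = 2.07e-04). The targeted gene of the RORγt KO was not examined here. The T cell genes Cd4 and Cd3e averaged 11.33 and 11.49 over the 9 arrays. Il17a, the defining cytokine gene of Th17 cells, lay between 8.30 and 8.66 in SRG3 cKO arrays, between 6.72 and 7.04 in RORγt KO arrays and between 10.09 and 11.14 in WT arrays. This marker of the labelled cell type thus lay below the array median in the RORγt KO cultures. Other Th17 markers lay above it there: Il17f at 10.25 to 10.49, Il23r at 7.25 to 7.95 and Ccr6 at 8.38 to 8.44. Il17f and Il23r fell against WT in both knockouts. Ccr6 fell in RORγt KO cells and was at 0.02 in SRG3 cKO cells (limma adjusted p = 0.946). Arrays report RNA of the whole culture, in which fewer cells of a type and less RNA per cell cannot be told apart.

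Among the 7 measured genes, Nt5e was higher in RORγt KO cells than in WT or SRG3 cKO cells, and P2rx7 was lower in SRG3 cKO than in RORγt KO cells. None of the 7 changed in SRG3 cKO against WT cells, where 0.523% of all genes did; by unadjusted p under 0.05, 1 of the 7 and 2480 of all genes (11.2%) lay past the line. The unadjusted p was under 0.05 for 4 of the 7 in RORγt KO against WT cells and for 4 in SRG3 cKO against RORγt KO cells, against 12.7% and 11.1% of all genes. Arrays of SRG3 cKO and WT that share a number had correlated deviations (0.116 to 0.287). With that number as a block in the arrays of all genotypes, RORγt KO included, 195 genes in place of 116 changed. In only the 6 arrays of SRG3 cKO and WT, 13 changed without the block. With it 32 did, in an alternative chosen after seeing the data. Each of these fits again called 0 of the 7. In RORγt KO against WT cells 1.04% of all genes changed and 0.694% rose, as did 1 of the 7, Nt5e. Between SRG3 cKO and RORγt KO cells 1.28% of all genes differed and 0.681% were lower in SRG3 cKO cells, as were 2 of the 7, Nt5e and P2rx7.

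The arrays of the groups did not overlap for 2 of the 7 genes in SRG3 cKO against WT cells (13.6% of all genes), for 4 in RORγt KO against WT cells (14.3%) and for 3 in SRG3 cKO against RORγt KO cells (14.6%). The median log2 change of the 7 was -0.07, 0.09 and -0.05 in the 3 comparisons in that order, and that of all genes -0.01, -0.00 and -0.00. Since the genes were listed with earlier results known, these counts describe the list.

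Nt5e, which encodes the adenosine-producing enzyme CD73, was higher in RORγt KO cells than in both other genotypes. Its level was 6.45, 6.44 and 6.66 in the SRG3 cKO arrays, 8.13, 7.80 and 7.78 in the RORγt KO arrays, and 6.59, 6.39 and 7.24 in the WT arrays. All 3 RORγt KO arrays lay above all others, while SRG3 cKO and WT arrays overlapped. The WT arrays were the most spread (SD 0.44), with WT array 3 above the other WT arrays, against an SD of 0.12 in SRG3 cKO and 0.20 in RORγt KO arrays.

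Nt5e rose 2.23-fold in RORγt KO against WT cells (log2 change 1.16, SE 0.19, limma adjusted p = 0.0267). It was 2.61-fold lower in SRG3 cKO than in RORγt KO cells (-1.39, SE 0.19, limma adjusted p = 0.00782). Between SRG3 cKO and WT cells it was at -0.23 (95% interval -0.65 to 0.20, adjusted p = 0.708), which did not pass. The call in RORγt KO against WT cells was not steady when 1 array was left out. It held without WT array 3 (limma adjusted p = 0.00314) and was lost when any of the other 8 arrays was left out. The adjusted p was then 0.0511, 0.0518 and 0.0529 without SRG3 cKO array 1, 2 and 3, 0.106, 0.0972 and 0.0553 without RORγt KO array 1, 2 and 3, and 0.055 and 0.105 without WT array 1 and 2. The log2 change stayed between 0.98 and 1.41 in these 9 fits. It was 1.16, as reported, without SRG3 cKO array 1, 2 or 3, which enter this comparison only through the estimate of the spread. The difference between SRG3 cKO and RORγt KO cells passed in all 20 alternatives run (adjusted p 0.00125 to 0.0446).

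**Figure D1:**
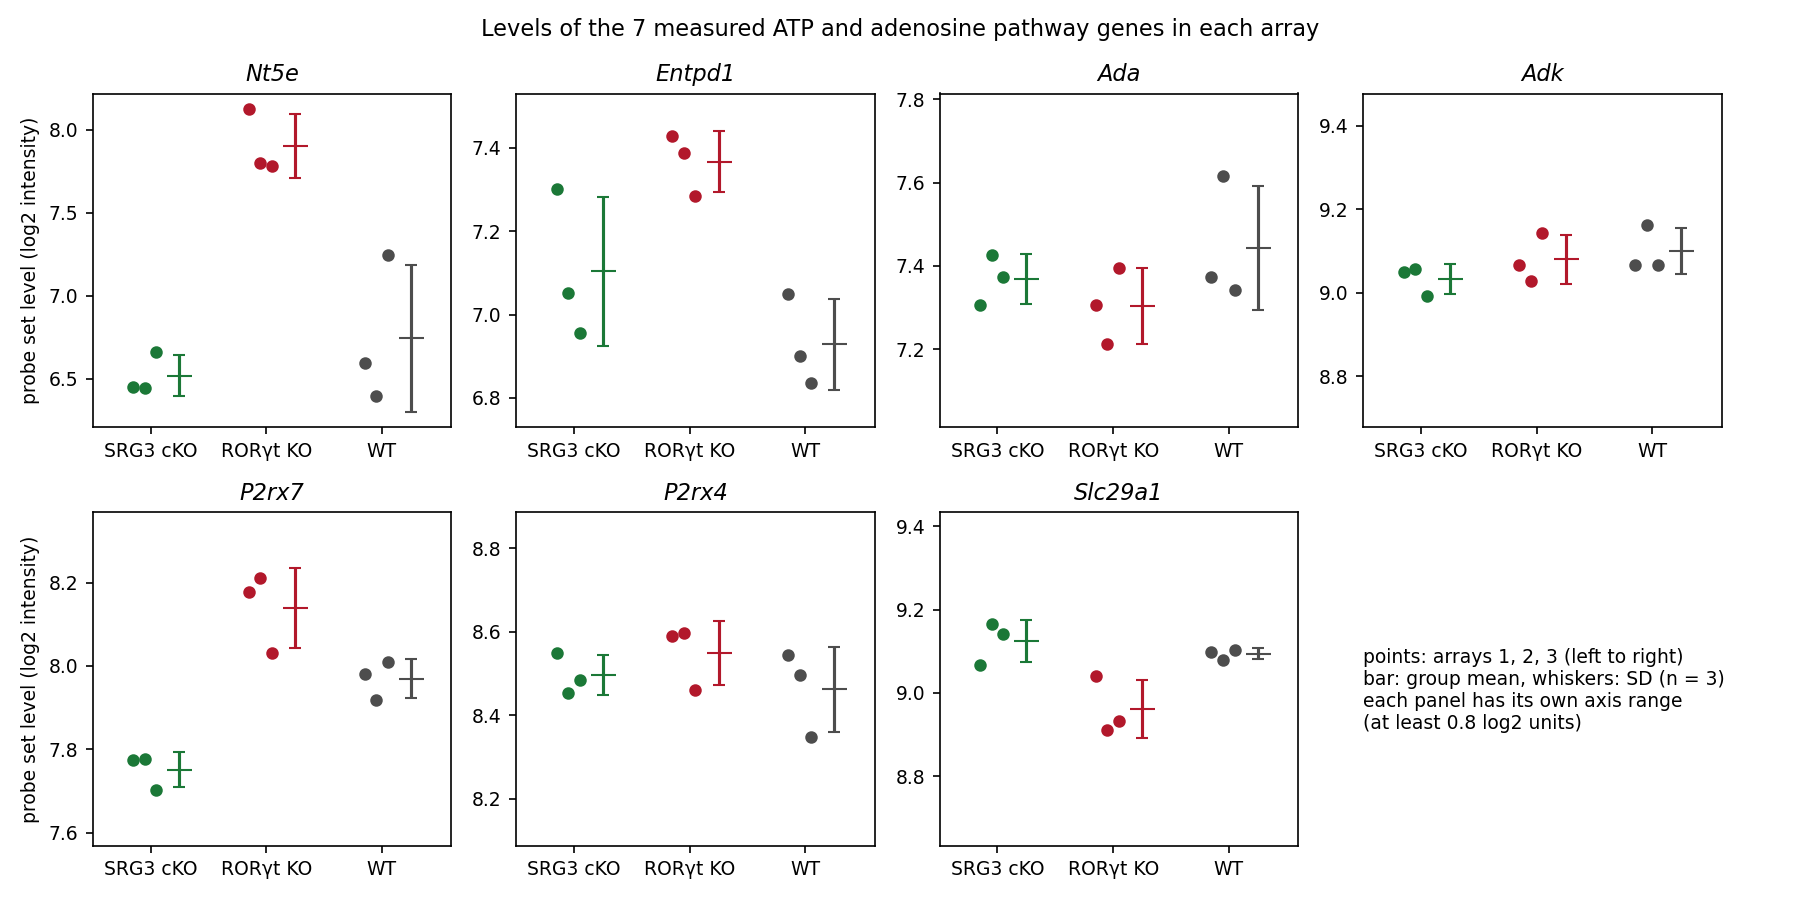
Log2 probe set levels of the 7 measured genes in each array (points), by genotype, with the group mean (bar) and SD (whiskers, n = 3). The 3 RORγt KO arrays lie above all others for Nt5e, and the genotypes are fully separated for P2rx7.

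Entpd1, which encodes CD39, the enzyme upstream of CD73, was highest in RORγt KO cells but did not pass the test. Its level was 7.30, 7.05 and 6.96 in the SRG3 cKO arrays, 7.43, 7.39 and 7.28 in the RORγt KO arrays, and 7.05, 6.90 and 6.84 in the WT arrays. RORγt KO and WT arrays did not overlap, while SRG3 cKO arrays overlapped with both. The log2 change was 0.44 in RORγt KO against WT cells (95% interval 0.24 to 0.64, limma adjusted p = 0.0586), a 1.35-fold difference. It was 0.17 in SRG3 cKO against WT cells (-0.02 to 0.37, adjusted p = 0.508) and -0.26 in SRG3 cKO against RORγt KO cells (-0.46 to -0.07, adjusted p = 0.28). In RORγt KO against WT cells Entpd1 passed without SRG3 cKO array 1 (adjusted p = 0.0328) or WT array 1 (0.0459) and in 6 of the 20 alternatives in all.

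P2rx7, which encodes an ATP-gated channel of T cells whose prolonged opening can kill them, differed between the knockouts. Its level was 7.77, 7.78 and 7.70 in the SRG3 cKO arrays, 8.18, 8.21 and 8.03 in the RORγt KO arrays, and 7.98, 7.92 and 8.01 in the WT arrays. The genotypes did not overlap: every SRG3 cKO array lay below every WT array, and every RORγt KO array above. The gap between the lowest RORγt KO array (8.03) and the highest WT array (8.01) was narrow.

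P2rx7 was 1.31-fold lower in SRG3 cKO than in RORγt KO cells (log2 change -0.39, SE 0.05, limma adjusted p = 0.00782), and this passed in all 20 alternatives (-0.44 to -0.35, adjusted p 0.00517 to 0.0451). Against WT cells neither knockout passed: the change was -0.22 in SRG3 cKO cells (95% interval -0.34 to -0.10, adjusted p = 0.149) and 0.17 in RORγt KO cells (0.05 to 0.29, adjusted p = 0.226). Neither passed in any of the 20 alternatives.

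P2rx4, for another ATP-gated channel, is the neighbour of P2rx7 in the annotation, with 0 protein-coding genes between them. Its level was 8.55, 8.45 and 8.49 in the SRG3 cKO arrays, 8.59, 8.60 and 8.46 in the RORγt KO arrays, and 8.54, 8.50 and 8.35 in the WT arrays, so all genotypes overlapped. The changes were 0.03 in SRG3 cKO against WT cells (95% interval -0.10 to 0.17), 0.09 in RORγt KO against WT cells (-0.05 to 0.22) and -0.05 in SRG3 cKO against RORγt KO cells (-0.19 to 0.08), none past the threshold.

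The genes that remove adenosine showed small differences. Slc29a1, which encodes the equilibrative nucleoside transporter ENT1, was at 9.07, 9.16 and 9.14 in the SRG3 cKO arrays, 9.04, 8.91 and 8.93 in the RORγt KO arrays, and 9.10, 9.08 and 9.10 in the WT arrays. All RORγt KO arrays lay below all others, while SRG3 cKO and WT arrays overlapped. The change was -0.13 in RORγt KO against WT cells (95% interval -0.23 to -0.03, adjusted p = 0.268) and 0.16 in SRG3 cKO against RORγt KO cells (0.06 to 0.26, adjusted p = 0.18), neither past the threshold. For SRG3 cKO against WT cells it was 0.03 (-0.07 to 0.13). The other Slc29a1 probe set, which averaged below the 25th percentile of all values, ran between 5.93 and 6.07 over the 9 arrays.

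Ada, for adenosine deaminase, was at 7.31, 7.43 and 7.37 in the SRG3 cKO arrays, 7.31, 7.21 and 7.39 in the RORγt KO arrays, and 7.37, 7.62 and 7.34 in the WT arrays, with all genotypes overlapping. Its changes were -0.07 in SRG3 cKO against WT (95% interval -0.24 to 0.10), -0.14 in RORγt KO against WT (-0.31 to 0.03) and 0.06 in SRG3 cKO against RORγt KO cells (-0.11 to 0.24). Adk, for the kinase that returns adenosine to AMP, was the steadiest of the measured genes over the 9 arrays (SD 0.05, against 0.69 for Nt5e). It ran from 8.99 to 9.06 in the SRG3 cKO arrays, 9.03 to 9.14 in the RORγt KO arrays and 9.07 to 9.16 in the WT arrays, the SRG3 cKO arrays lying just below the WT arrays. Its changes were -0.07 in SRG3 cKO against WT (-0.17 to 0.04), -0.02 in RORγt KO against WT (-0.12 to 0.08) and -0.05 in SRG3 cKO against RORγt KO cells (-0.15 to 0.05). None of these changes of Ada and Adk passed the test.

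**Figure D2:**
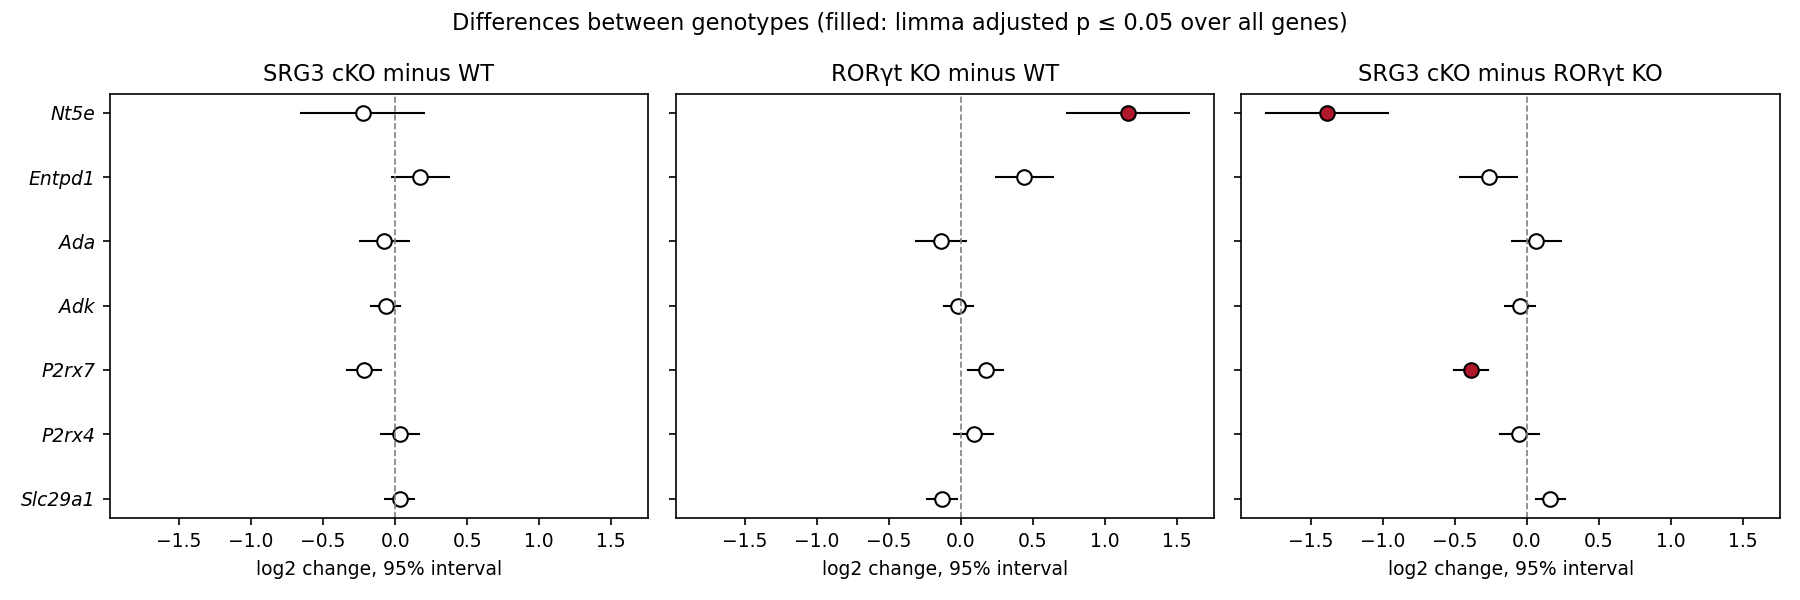
Log2 changes of the 7 measured genes in the 3 comparisons, with 95% intervals of the limma fit; filled points passed at an adjusted p of 0.05 over all genes. Nt5e is filled at 1.16 in RORγt KO minus WT and at -1.39 in SRG3 cKO minus RORγt KO, where P2rx7 is filled at -0.39.

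Further genes of the pathway were read from 8 lists by role, with 81 genes of which 71 were measured. None of the 71 changed in SRG3 cKO against WT cells by the limma test, against 0.523% of all genes. In RORγt KO against WT cells 4 rose, against 0.694% of all genes, and 0 fell. In SRG3 cKO against RORγt KO cells 0 were higher and 3 lower, against 0.681% of all genes lower. By unadjusted limma p under 0.05, 9, 12 and 10 of the 71 lay past the line in these comparisons, against 11.2%, 12.7% and 11.1% of all genes. Their median log2 change was 0.00, 0.02 and -0.01 in these comparisons.

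Of 6 genes for ATP release, Gja1, which encodes the channel protein connexin 43, rose in RORγt KO against WT cells. Its level was 7.61, 7.50 and 7.36 in the SRG3 cKO arrays, 8.50, 8.37 and 8.24 in the RORγt KO arrays, and 7.81, 7.50 and 7.81 in the WT arrays, all RORγt KO arrays above all others. The change was 0.67 in RORγt KO against WT cells (SE 0.10, limma adjusted p = 0.0202) and -0.88 in SRG3 cKO against RORγt KO cells (SE 0.10, adjusted p = 0.00291). Gja1 was at -0.22 in SRG3 cKO against WT cells (adjusted p = 0.467), not past the threshold. The pannexin channel gene Panx1 was at 0.12, 0.07 and 0.05 in SRG3 cKO against WT, RORγt KO against WT and SRG3 cKO against RORγt KO cells, and the vesicular nucleotide transporter gene Slc17a9 at 0.11, 0.08 and 0.03, none past the threshold.

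Of 6 measured genes for other surface enzymes, Dpp4 rose in RORγt KO against WT cells. Dpp4 encodes CD26, a peptidase that holds adenosine deaminase at the cell surface in humans. Its level was 8.50, 8.51 and 8.53 in the SRG3 cKO arrays, 8.73, 8.74 and 8.78 in the RORγt KO arrays, and 8.41, 8.46 and 8.52 in the WT arrays, so the RORγt KO arrays stood above the rest. The change was 0.29 in RORγt KO against WT cells (SE 0.04, limma adjusted p = 0.014), -0.24 in SRG3 cKO against RORγt KO cells (SE 0.04, adjusted p = 0.0208) and 0.05 in SRG3 cKO against WT cells (adjusted p = 0.692), the last not past the threshold.

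No other P2X or P2Y receptor gene changed (0 of 12 in each comparison). Their values ran from -0.22 (P2ry1, adjusted p = 0.267) to 0.06 in SRG3 cKO against WT cells and from -0.12 to 0.10 in RORγt KO against WT cells. In SRG3 cKO against RORγt KO cells they ran from -0.18 (P2rx2, adjusted p = 0.228) to 0.05. Adora3, an adenosine receptor gene, did not change either, at -0.02, 0.03 and -0.04 in the 3 comparisons. Other nucleoside transporters (0 of 6) and enzymes of adenosine and AMP inside the cell (0 of 15) did not pass either. By unadjusted limma p under 0.05, the counts in SRG3 cKO against WT, RORγt KO against WT and SRG3 cKO against RORγt KO cells were 1, 0 and 1 of the 12 receptors, 1, 1 and 0 of the 6 transporters and 3, 2 and 1 of the 15 enzymes, against 11.2%, 12.7% and 11.1% of all genes. Among the transporters Slc29a3 was at 0.17 in SRG3 cKO and 0.16 in RORγt KO against WT cells, and among the enzymes Hprt, the purine salvage gene, at 0.12 and 0.04. Of 19 measured genes for the cAMP arm downstream of adenosine receptors, 0 passed in each comparison, with 1, 4 and 3 at an unadjusted limma p under 0.05, against the same shares of all genes. Crem, a cAMP-induced transcription factor gene chosen after its values were seen, was at 0.29 in SRG3 cKO against WT (adjusted p = 0.328) and 0.27 in RORγt KO against WT cells (adjusted p = 0.318), and Prkar1a, a regulatory subunit of protein kinase A, at -0.03 and 0.06. The 19 ran from -0.11 to 0.29 (Crem) in SRG3 cKO and from -0.16 to 0.32 (Pde8a, adjusted p = 0.322) in RORγt KO against WT cells. In SRG3 cKO against RORγt KO cells they ran from -0.41 (Pde8a, adjusted p = 0.215) to 0.11.

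Of 6 genes for reported regulators of Entpd1 or Nt5e, 2 rose in RORγt KO against WT cells. Ahr, for the aryl hydrocarbon receptor, was at 9.21, 9.22 and 8.93 in the SRG3 cKO arrays, 10.14, 10.08 and 9.99 in the RORγt KO arrays, and 9.36, 9.41 and 9.46 in the WT arrays, with no overlap between genotypes. It rose by 0.66 in RORγt KO against WT cells (SE 0.08, limma adjusted p = 0.00603) and was at -0.95 in SRG3 cKO against RORγt KO cells (SE 0.08, adjusted p = 5.68e-04). Ahr was at -0.29 in SRG3 cKO against WT cells (adjusted p = 0.189), not past the threshold. Hif1a, for the oxygen-regulated factor HIF-1α, was at 0.26 in RORγt KO against WT cells (SE 0.05, adjusted p = 0.0421). Stat3 at 0.17, Gfi1 at -0.07, Sp1 at -0.07 and Smad3 at -0.05 did not pass in this comparison. Ahr passed in all 20 alternatives in both comparisons that called it. In RORγt KO against WT cells Gja1 passed in 5 of the 9 fits without 1 array (adjusted p up to 0.0945), Dpp4 in 6 (up to 0.0703) and Hif1a in 1 (up to 0.177), and in SRG3 cKO against RORγt KO cells Gja1 passed in 9 and Dpp4 in 3 (up to 0.0843).

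**Figure D3:**
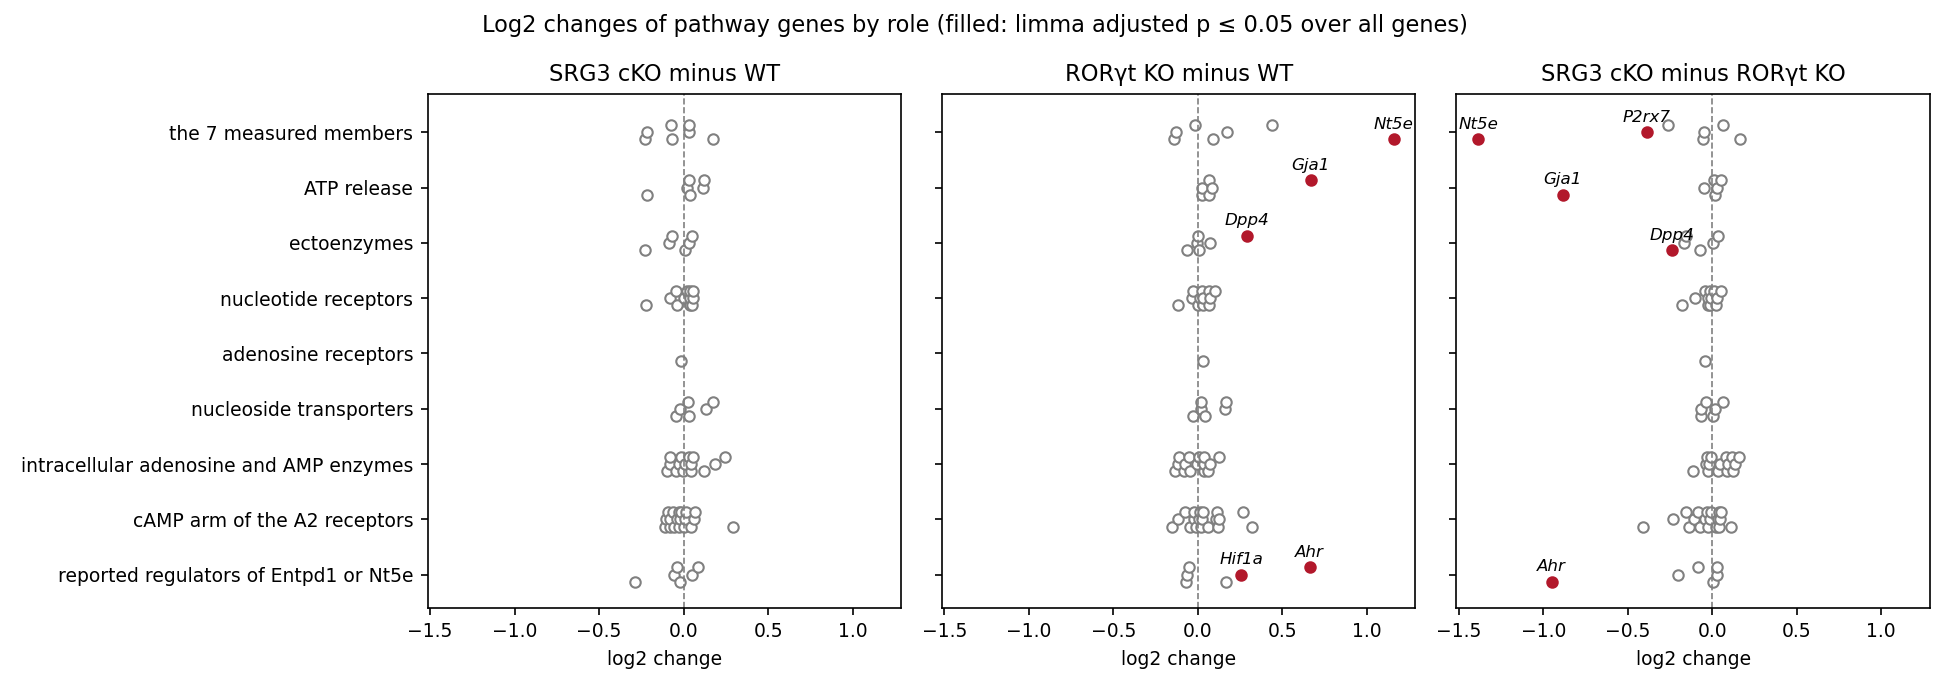
Log2 changes of the 7 genes and of the 71 measured genes of the 8 role lists (points) in the 3 comparisons; filled and named points passed at an adjusted p of 0.05 over all genes. The filled genes lie above 0 in RORγt KO minus WT and below 0 in SRG3 cKO minus RORγt KO.

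Markers of other T cell states were read beside Nt5e. Of 12 Treg markers, from which Nt5e itself was left out, Tigit (0.72, limma adjusted p = 0.014) and Tnfrsf9 (0.80, adjusted p = 0.0273) rose in RORγt KO against WT cells, and Foxp3, the defining Treg gene, chosen after its value was seen, was at 0.31 (adjusted p = 0.138), not past the threshold. Their mean level ran from 8.94 to 9.10 in SRG3 cKO arrays, 9.01 to 9.17 in RORγt KO arrays and 8.75 to 8.88 in WT arrays. In SRG3 cKO against WT cells Gpr83 rose (0.69, adjusted p = 0.0179), while Tnfrsf9 at 0.66 (adjusted p = 0.0776) and Izumo1r, chosen after its value was seen, at 0.44 (adjusted p = 0.0532) did not pass. In each knockout against WT, 6 of the 12 had an unadjusted limma p under 0.05, against 11.2% and 12.7% of all genes. In SRG3 cKO against WT cells these 6 included Nrp1, which was lower, and the 12 ran from -0.21 (Nrp1) to 0.69 (Gpr83). In RORγt KO against WT cells the 12 ran from -0.03 to 0.80. Every array of both knockouts had a higher mean level of the 12 than every WT array. Of 9 measured markers of naive T cells, Il7r (0.95, adjusted p = 0.00135), Ccr7 (0.66, adjusted p = 0.05) and Igfbp4 (0.50, adjusted p = 0.0123) rose in RORγt KO against WT cells and 0 changed in SRG3 cKO against WT cells. Unadjusted limma p was under 0.05 for 8 of the 9 in SRG3 cKO against WT cells, where the share of all genes was 11.2%. It was under 0.05 for 5 in RORγt KO against WT cells, where the share was 12.7%. Changes of the 9 ran from -0.10 (Il7r) to 0.48 in SRG3 cKO and from -0.04 to 0.95 (Il7r) in RORγt KO against WT cells. Their mean level ran from 9.41 to 9.45 in SRG3 cKO, 9.45 to 9.61 in RORγt KO and 9.18 to 9.28 in WT arrays, above WT in both knockouts. The part of these cell states in the Nt5e and Entpd1 values was not tested.

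Of 8 markers of CD8 T and NK cells, Klrd1, for the NK receptor subunit CD94, rose in RORγt KO against WT cells (0.91, adjusted p = 0.0202), and the mean of the 8 ran from 6.79 to 6.82 in SRG3 cKO, 6.97 to 7.07 in RORγt KO and 6.86 to 6.92 in WT arrays. The 7 genes other than Klrd1 were between -0.08 (Cd8a) and 0.14 (Prf1) in RORγt KO against WT cells, none past the threshold, and the median change of the 8 was 0.04. Neither B cell markers (0 of 7) nor myeloid markers (0 of 10) changed in any comparison. Unadjusted limma p was under 0.05 for at most 1 and 3 of them. The shares of all genes were 11.2%, 12.7% and 11.1% in SRG3 cKO against WT, RORγt KO against WT and SRG3 cKO against RORγt KO cells. The mean level of the B cell markers ran from 7.41 to 7.48 in SRG3 cKO, 7.48 to 7.59 in RORγt KO and 7.30 to 7.64 in WT arrays. That of the myeloid markers, whose cells carry much CD39, ran from 6.74 to 6.79, 6.80 to 6.85 and 6.73 to 6.78 in the same order of genotypes, below the median of every array. Every RORγt KO array had a higher myeloid mean than every other array, and the part of such cells in the Entpd1 values was not tested. Of the 9 fits without 1 array, Il7r passed in 9 in RORγt KO against WT cells, Igfbp4 in 7, Tigit in 6, Klrd1 in 5, Tnfrsf9 in 3 and Ccr7 in 1, and Gpr83 passed in 6 in SRG3 cKO against WT cells.

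The genes most like Nt5e over the 9 arrays were Rgcc, a cell cycle regulator gene (Pearson r = 0.95), Gja1 (0.94), Lgals3, for galectin-3 (0.93), Nkg7, for a granule protein (0.92), and Il7r (0.92). They were taken from 149 genes with a mean level above the median of all genes and an SD of at least 0.3. Of these, 5.37% had an r above 0.9 with Nt5e. Their changes in RORγt KO against WT cells were 0.55, 0.67, 0.41, 0.48 and 0.95 in that order. For Entpd1, the member with the next largest spread, they were Vps37b, for a subunit of the endosomal sorting machinery (0.95), Fam169b (0.95), Neurl3, for a ubiquitin ligase (0.94), and the metallothionein genes Mt2 (0.94) and Mt1 (0.93), and 12.1% of the 149 had an r above 0.9. No gene stood in both lists. The 9 arrays fall into 3 genotypes, so r follows differences between genotypes as well as within them and is given as a description.

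**Figure D4:**
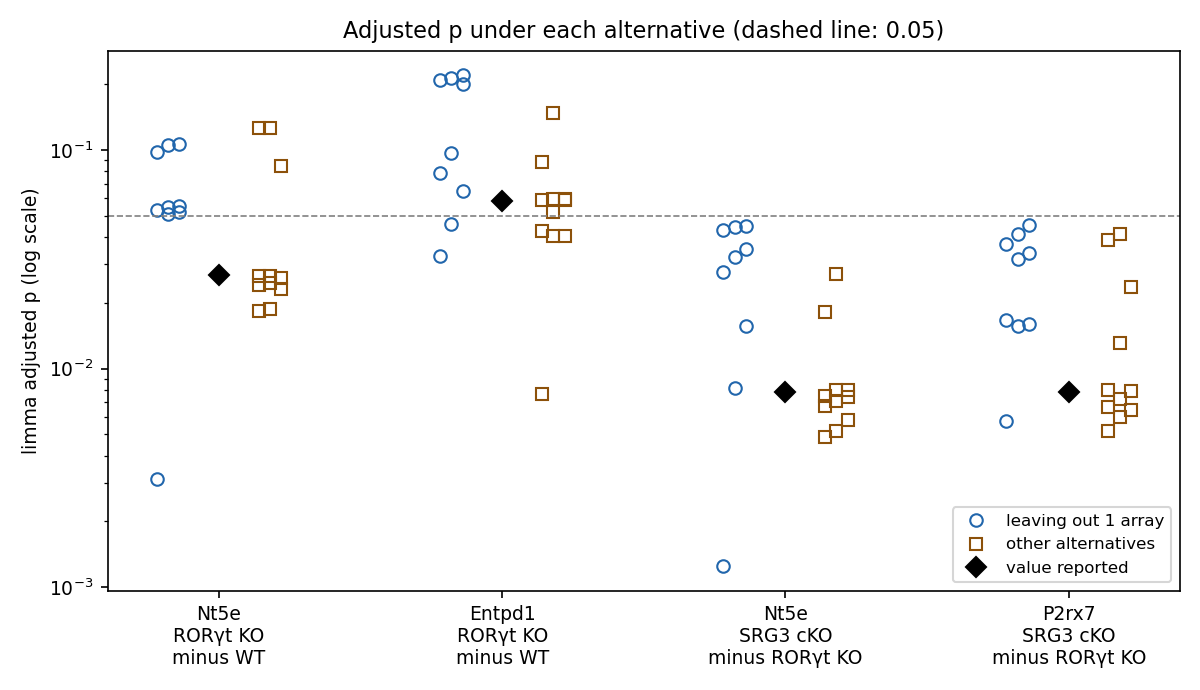
Limma adjusted p (log scale) of 4 results as reported (diamonds), in the 9 fits without 1 array (circles) and in the other 11 alternatives (squares), with the threshold of 0.05 as a dashed line. Both SRG3 cKO minus RORγt KO results stay under the line, while Nt5e and Entpd1 in RORγt KO minus WT lie on both sides of it.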

How the data were processed

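RNA of 9 Th17 cultures was labelled with biotin and hybridized to GeneChip WT arrays, per the labels' protocols. The values are log2 probe set intensities as deposited by the authors in the series matrix; background correction, summarization and normalization are not given in the sources used here. No sample column was left unused (0).

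The table held 41345 probe sets; 23521 with 1 gene symbol were kept, and 1814 with several symbols and 16010 without any were left out. Symbols were updated by gene ID (23328 matched) with RefSeq's GRCm38.p6 table, and the brightest probe set was used for the 1082 genes with several. All 9 arrays entered a single limma fit with no block (limma 3.58.1, R 4.3.3). The fit was also run on simulated data with noise independent between arrays, which cannot show how it handles deviations that arrays share. For arrays of the same number, deviations correlated at 0.287, 0.186 and 0.116 between SRG3 cKO and WT. RORγt KO with WT gave 0.215, -0.00527 and 0.186, and SRG3 cKO with RORγt KO gave 0.223, -0.00544 and 0.137. SRG3 cKO and WT arrays were taken as paired because each value was over 0.1. The other pairs of groups fell short of this only at number 2. Correlations between arrays of different numbers are not given here, so these values cannot decide whether arrays were paired. The reported p-values of SRG3 cKO against WT come from the fit with no block.

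The members and lists were chosen with earlier results of these data known. Named were all members, up to 4 called genes per list, otherwise up to 2 of its brightest or, chosen after their values were seen, others, and the 5 genes most like the 2 most variable members. Alternatives covered normalization, probe sets, filters, variance models, weights, arrays in the fit, the block and leaving out each array. No set test was run.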

Additional observations from a re-analysis of the deposited data

How the results depend on the processing

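Of 21 member results (7 genes in 3 comparisons), 14 kept their direction and their side of the threshold in all 20 alternatives. In RORγt KO against WT cells 1 member was called as reported. It was 2 without genes under the 25th percentile of mean level, with array weights or with the replicate block in all 9 arrays (Nt5e and Entpd1 in each), 0 in the test across all probe sets or in only the 6 arrays of these groups, and between 0 and 1 without 1 array. With the replicate block Entpd1 had a limma adjusted p = 0.00763 there and 0.0441 in SRG3 cKO against RORγt KO cells. The labels do not say whether arrays that share a number in these groups belong together. The replicate block changed no member's call in SRG3 cKO against WT cells.

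All genes called in SRG3 cKO against WT cells were 116 as reported, 48 probe sets in the test across all of them, 13 in only the 6 arrays, 195 with the replicate block, 32 with the block in the 6 arrays (an alternative chosen after seeing the data) and between 18 and 87 without 1 array. In RORγt KO against WT cells they were 230 as reported, and 128, 43, 374, 63 and between 45 and 322 in the same order. In SRG3 cKO against RORγt KO cells they were 283 as reported, 142 in only the 6 arrays, 131 with the replicate block in these and between 138 and 261 without 1 array. Fewer arrays leave fewer degrees of freedom; the cause of the other moves was not tested.

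Reversals were of values that passed in no alternative. Without 1 array, Nt5e in SRG3 cKO against WT cells ran from -0.40 to 0.024 (without WT array 3), Ada from -0.12 to 0.012 (without WT array 2) and P2rx4 from -0.024 (without WT array 3) to 0.075, and Adk in RORγt KO against WT cells from -0.051 to 0.013 (without WT array 2; 0.0065 without RORγt KO array 2). Background intensity was not measured, so folds of dim probe sets such as that of Nt5e are those of intensities.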

Other observations

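In each genotype the array numbered 1 had the highest Entpd1 level, at 7.30 in SRG3 cKO, 7.43 in RORγt KO and 7.05 in WT cultures. For Nt5e the array numbered 3 was the highest in SRG3 cKO and WT cultures (6.66 and 7.24) and the array numbered 1 in RORγt KO cultures (8.13).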
